A study of Homo sapiens with 6 samples.

Results

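The 8 AP-1 transcription factor genes FOS, FOSB, FOSL1, FOSL2, JUN, JUNB, JUND and ATF3 were read by their Entrez IDs from the deposited count table, which holds 28395 genes. TC28a2, an immortalised human chondrocyte line, received either a control vector or a ZEB1 overexpression vector by transfection, ZEB1 being a zinc finger repressor, and RNA was taken at 48 h. Each vector had 3 libraries, made by DRUG-seq, a low-cost, high-throughput form of RNA-seq. The groups differ in the vector, and the promoter that drives ZEB1 in it is not given in the sources used here. The labels do not say whether replicates were separate cultures. The p-values therefore measure the spread between these libraries, which may be technical.

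AP-1 is a family of dimers that bind DNA through a basic region and a leucine zipper. JUN proteins can pair with themselves or with FOS proteins, whereas FOS proteins need a JUN partner, and ATF3 can pair with JUN proteins. Growth factor, stress and cytokine signals raise AP-1 activity through the MAP kinases, and in cartilage AP-1 is known for driving matrix metalloproteinase genes. ZEB1 is known to bind E-boxes of the form CACCTG and to repress epithelial genes.

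The FOS-related genes FOSL1 and FOSL2 and the JUN-related gene JUNB were lower in all 3 ZEB1 libraries than in any control library, by 1.58-fold, 2.27-fold and 1.60-fold in the fit. JUND was nearly level (log2 fold change 0.06, SE 0.18), and JUN was intermediate (-0.42, SE 0.20) with groups that overlapped. None of the 8 genes passed the edgeR quasi-likelihood test at an adjusted p of 0.05, where 0.00883% of the 11329 genes tested (1 gene, ZEB1 itself) passed. At an unadjusted p under 0.05 there were 3 of the 8 genes, all lower, against 3.57% of all genes tested in that direction. When libraries were scaled by their totals alone there were 4, JUN being added, against 7.12% of all genes. Without control replicate 3 there were 2 such genes, FOSL1 and FOSL2, where 207 of 11307 genes were lower at that p. Leaving out both ZEB1 replicates 1 and 2 leaves 1 ZEB1 library. The log2 fold changes were then -0.33 for FOSL1, -1.07 for FOSL2, -0.45 for JUNB and -0.43 for JUN. FOSL1, FOSL2 and JUNB had groups that did not overlap, with the ZEB1 libraries below, which held for 8.16% of all genes tested. All 8 passed the filter on low counts, and the genes were chosen with earlier results of these data known, so these shares are a description. In bulk RNA, fewer cells that hold a transcript and less of it per cell cannot be told apart.

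RefSeq start-site windows of GRCh38.p14 were matched for 7 of the 8 genes, all but FOSL1, from 250 bases before to 50 bases after the annotated start. The windows of FOSL2, JUN and JUND are shown up to base 25 after the start, because FOSL2 had the lowest ratio of ZEB1 vector to control among the members with over 100 counts per library on average, JUND was level, and JUN was intermediate. Capitals mark matches to 4 searched motifs, on either strand. FOSL2 lies at chr2:28392608-28392882 on the plus strand, JUN at chr1:58784023-58784297 and JUND at chr19:18281598-18281872, both on the minus strand, and each is written 5′ to 3′.
FOSL2: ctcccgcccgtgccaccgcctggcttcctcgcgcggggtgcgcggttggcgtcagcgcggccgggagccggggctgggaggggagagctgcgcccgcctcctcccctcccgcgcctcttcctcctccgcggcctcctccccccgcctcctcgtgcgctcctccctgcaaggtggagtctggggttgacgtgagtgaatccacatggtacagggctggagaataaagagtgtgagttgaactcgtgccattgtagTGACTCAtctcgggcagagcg
JUN: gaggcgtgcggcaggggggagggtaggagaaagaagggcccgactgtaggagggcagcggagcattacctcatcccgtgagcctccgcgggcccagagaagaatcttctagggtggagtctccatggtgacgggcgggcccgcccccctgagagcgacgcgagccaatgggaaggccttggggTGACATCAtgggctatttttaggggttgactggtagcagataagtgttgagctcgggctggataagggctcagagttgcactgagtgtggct
JUND: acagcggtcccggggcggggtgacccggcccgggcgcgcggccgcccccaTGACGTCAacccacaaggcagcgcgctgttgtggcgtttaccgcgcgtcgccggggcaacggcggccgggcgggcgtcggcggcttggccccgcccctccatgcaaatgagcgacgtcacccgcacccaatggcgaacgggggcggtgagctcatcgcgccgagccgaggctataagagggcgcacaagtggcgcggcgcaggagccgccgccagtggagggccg

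The AP-1 element TGACTCA stood in the FOSL2 window alone among those of the 7 genes, at bases 5 to 11 after the start, and in 4.95% of all 35116 windows of that length. The cyclic AMP response element TGACGTCA stood in the JUND window alone among them, at bases -200 to -193, and in 1.85% of all windows. The variant TGACATCA, the form through which JUN is known to act on its own promoter, was found in JUN at bases -67 to -60 and in 1 of the windows of ATF3 at bases -123 to -116, and in 2.61% of all windows. The ZEB1 E-box CACCTG was in 0 of the 8 windows of these 7 genes, ATF3 having more than 1, and in 20.6% of all windows. These matches are letters in a window, and nothing about binding was measured.

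FOSL1 (Entrez 8061, chromosome 11, 65892049 to 65900545, GRCh38.p14) encodes FRA1, a FOS protein that lacks the strong activation domain of FOS and whose gene is an output of ERK signalling. It had 1126, 838 and 1031 counts in control replicates 1, 2 and 3, which is 181, 153 and 168 CPM (counts scaled to a common total after TMM adjustment). With the ZEB1 vector it had 93, 150 and 450 counts, or 82.6, 96.5 and 134 CPM. All 3 ZEB1 libraries lay below all 3 controls, and ZEB1 replicate 3 lay closest to them. The means were 167 ± 13.9 CPM in the controls and 104 ± 26.6 CPM in the ZEB1 libraries (SD, n = 3), a log2 fold change of -0.66 (SE 0.18, 95% interval -1.04 to -0.28) with an edgeR adjusted p of 0.225.

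FOSL1 passed in some settings and not in others. Its unadjusted p was 0.00185 in edgeR, 0.00167 in DESeq2 and 0.00189 in limma-voom, tools that adjusted over different numbers of genes or by different steps. In limma-voom FOSL1 did not pass (adjusted p = 0.136). It passed in edgeR without ZEB1 replicate 3 (log2 fold change -0.90, adjusted p = 0.00869), where 3.38% of 12095 genes passed. With no filter on low counts it passed at an edgeR adjusted p of 0.0399, where 0.693% of 18319 genes passed, and in DESeq2 at an adjusted p of 0.0233, where 11.6% of the 1765 genes that DESeq2 adjusted passed. With ZEB1 replicates 1 and 2 both left out, a choice made after seeing the data, the log2 fold change was -0.33 (edgeR adjusted p = 0.694). Those libraries had 1277632 and 1621270 counts and 12267 and 14047 CPM of ZEB1, against 3316228 counts and 6894 CPM in replicate 3, so the part of depth and that of the amount of ZEB1 cannot be told apart. Thinning all libraries to 1277632 counts gave a FOSL1 log2 fold change of -0.60.

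FOSL2 (Entrez 2355, chromosome 2, 28392858 to 28417317) encodes FRA2, the other FOS-related antigen. Control replicates 1, 2 and 3 had 260, 218 and 166 FOSL2 counts, and the ZEB1 libraries had 18, 22 and 58. In CPM these were 41.7, 39.7 and 27.1 in the controls and 16.0, 14.1 and 17.3 in the ZEB1 libraries. The 3 ZEB1 libraries lay close together and below every control, and control replicate 3 was the lowest of the controls. The means were 36.2 ± 7.93 CPM and 15.8 ± 1.57 CPM (SD, n = 3), a log2 fold change of -1.18 (SE 0.31, 95% interval -1.83 to -0.53) with an edgeR adjusted p of 0.215. The log2 fold change was -1.08 to -1.36 on leaving out single libraries and -1.07 with ZEB1 replicates 1 and 2 both left out. Its smallest adjusted p, over the alternatives that gave one, was 0.0558 in edgeR without ZEB1 replicate 3. DESeq2 gave FOSL2 no adjusted p. The antisense gene FOSL2-AS1, which overlaps FOSL2, had 0 counts in all 6 libraries.

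FOS and FOSB, the immediate early members that are known to peak within an hour of a stimulus, had at most 27 counts in a library. FOS (Entrez 2353) had 27, 10 and 22 counts in the control libraries, against 4, 11 and 20 in the ZEB1 libraries. Scaled to depth, FOS was at 4.33, 1.82 and 3.59 CPM in the controls and 3.55, 7.07 and 5.96 CPM in the ZEB1 libraries. The groups overlapped, and the log2 fold change of 0.78 (SE 0.77) had a 95% interval from -0.83 to 2.39 (edgeR adjusted p = 0.820). FOSB (Entrez 2354) had 15, 17 and 13 counts in control libraries and 3, 0 and 5 in the ZEB1 libraries. A floor of 3 counts stood for 2.67, 1.93 and 0.894 CPM in ZEB1 replicates 1, 2 and 3, and FOSB in the controls was at 2.12 to 3.10 CPM. Its log2 fold change of -0.92 had an SE of 1.11 and a 95% interval from -3.24 to 1.41. The direction of a change in FOSB was thus not resolved with these counts.

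**Figure D1:**
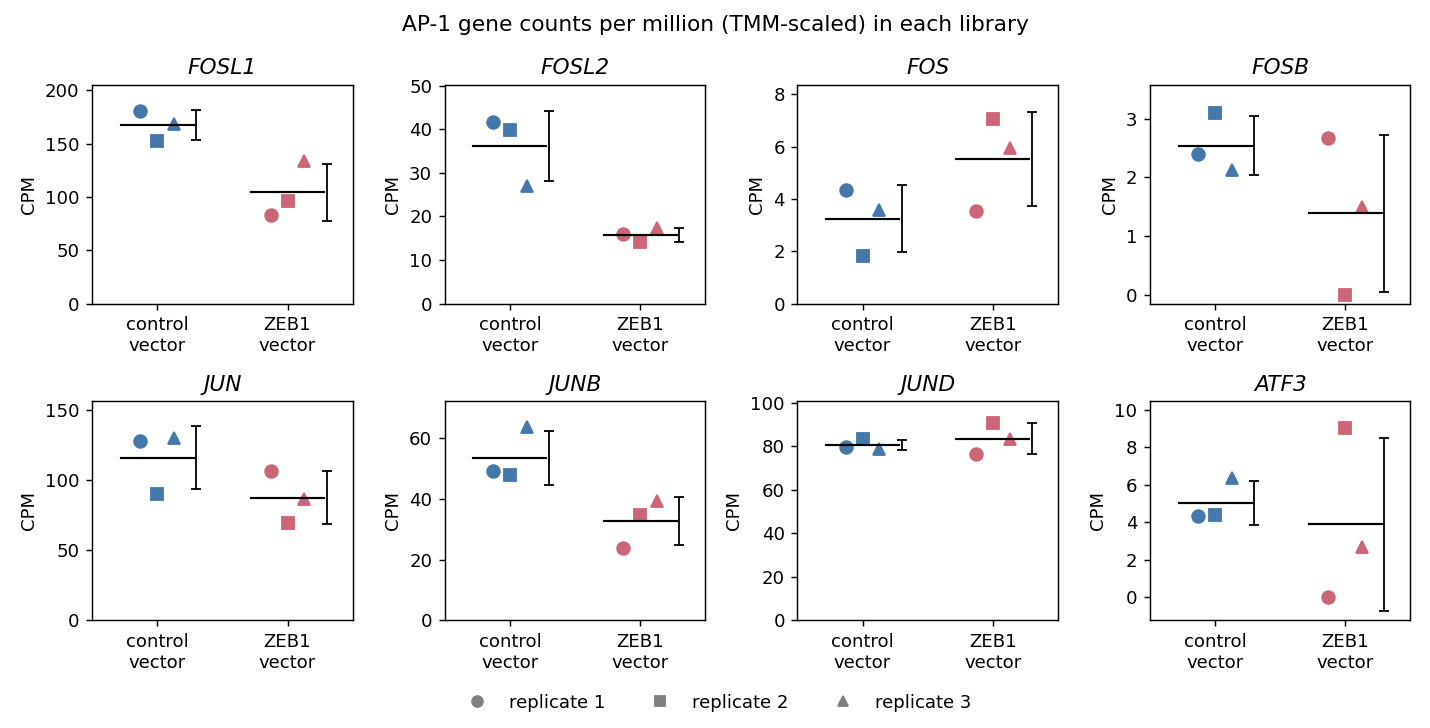
TMM-scaled CPM of the 8 AP-1 genes in each library (y axis, different for each gene and starting at 0, or just below it for FOSB and ATF3), with points for replicates 1 to 3, a horizontal line at the group mean and a bar for 1 SD (n = 3). The ZEB1 vector libraries lie below every control library for FOSL1, FOSL2 and JUNB and overlap the controls for the other genes.

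JUN (Entrez 3725, chromosome 1, 58780791 to 58784047) is the founding member and the main partner of FOS proteins. The control libraries held 795, 493 and 796 JUN counts and the ZEB1 libraries 120, 108 and 289, or 128, 89.9 and 130 CPM against 107, 69.4 and 86.1 CPM. ZEB1 replicate 1 lay above control replicate 2, so the groups overlapped. The log2 fold change was -0.42 (SE 0.20, 95% interval -0.83 to 0.0040) with an edgeR adjusted p of 0.537. On leaving out single libraries it was -0.29 to -0.57, with the lowest value without control replicate 2, whose level was the lowest of the controls.

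JUNB (Entrez 3726, chromosome 19, 12791486 to 12793315) encodes a JUN protein that is a weaker activator than JUN. Its counts were 307, 262 and 390 for the controls and 27, 54 and 132 in the ZEB1 libraries. This was 49.2, 47.8 and 63.6 CPM in control replicates 1, 2 and 3 and 24.0, 34.7 and 39.3 CPM in ZEB1 replicates 1, 2 and 3. Every ZEB1 library was below every control, with a gap between 39.3 and 47.8 CPM. The means were 53.5 ± 8.77 and 32.7 ± 7.87 CPM (SD, n = 3), a log2 fold change of -0.68 (SE 0.25, 95% interval -1.20 to -0.15) with an edgeR adjusted p of 0.363. Without both ZEB1 replicates 1 and 2 the log2 fold change was -0.45. JUNB overlaps HOOK2 in the RefSeq table, and HOOK2 had 36, 28 and 63 counts in control libraries and 6, 10 and 1 in the ZEB1 libraries. The strand setting of the counting is not given in the sources used here, so reads of these genes may have been mixed.

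JUND (Entrez 3727, chromosome 19, 18279694 to 18281622) encodes the JUN protein that is typically made at a steady level and restrains growth in many cells. Its counts were 495, 457 and 483 for the controls and 86, 141 and 280 in the ZEB1 libraries. Scaled to depth these were 79.4, 83.3 and 78.8 CPM against 76.4, 90.7 and 83.4 CPM. The controls lay within the range of the ZEB1 libraries. The means were 80.5 ± 2.44 and 83.5 ± 7.13 CPM (SD, n = 3), and the 95% interval of the log2 fold change ran from -0.32 to 0.43 (edgeR adjusted p = 0.953). The sign of this value turned under scaling by library size alone (-0.07), which moved the median of all genes by -0.13, under thinning (-0.03) and without ZEB1 replicate 2 (-0.0076).

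ATF3 (Entrez 467), a stress-induced factor that as a homodimer represses its targets, was counted 27, 24 and 39 times in the controls and 0, 14 and 9 times in the ZEB1 libraries. In CPM the controls were at 4.33, 4.38 and 6.36 and ZEB1 replicates 2 and 3 at 9.00 and 2.68. The count of 0 in ZEB1 replicate 1 allows up to 2.67 CPM, where the floor covers counting error only. The ZEB1 libraries thus lay on both sides of the controls, and the log2 fold change of -0.34 (SE 0.87, edgeR adjusted p = 0.940) became 0.12 without ZEB1 replicate 1.

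**Figure D2:**
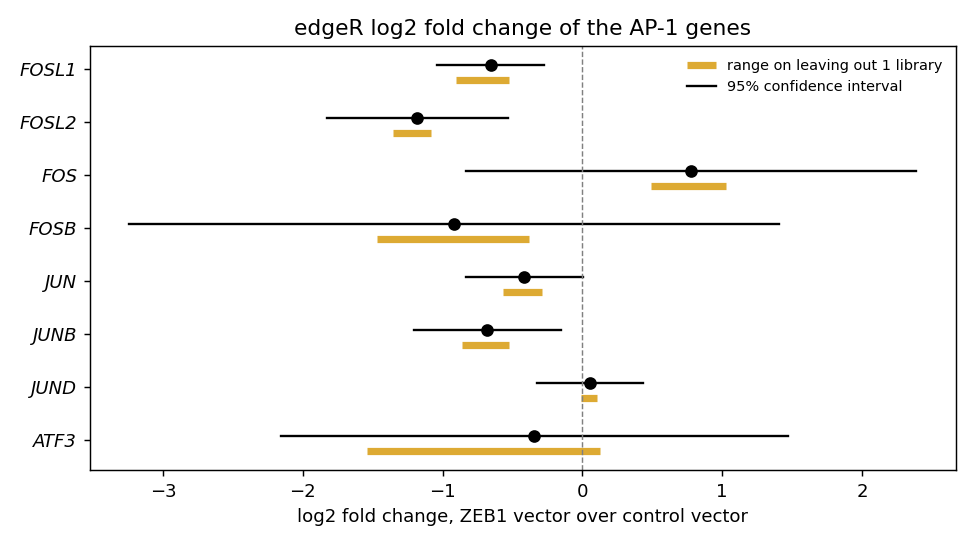
Log2 fold change of the 8 AP-1 genes, ZEB1 vector over control vector, from edgeR (x axis), with points for the estimate, black lines for its 95% confidence interval and yellow lines for the range on leaving out 1 library at a time. The intervals of FOSL1, FOSL2 and JUNB lie below 0, and those of FOS, FOSB and ATF3 are the widest.

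Summed over the FOS family (FOS, FOSB, FOSL1 and FOSL2) the control libraries held 229, 197 and 201 CPM and the ZEB1 libraries 105, 118 and 159 CPM. The JUN family (JUN, JUNB and JUND) summed to 256, 221 and 272 CPM in the controls and 207, 195 and 209 CPM in the ZEB1 libraries. Both sums were lower in every ZEB1 library than in any control, an order that 8.16% of single genes tested had. Within the JUN family, JUNB alone had groups that did not overlap, while JUN overlapped and JUND was nearly level. The FOS family mean was 209 ± 17.3 CPM against 127 ± 28.2 CPM, and the JUN family mean 250 ± 26.3 CPM against 204 ± 7.61 CPM (SD, n = 3). The FOS family sum is mostly FOSL1, and the counts are not scaled to transcript length, so the sums describe libraries and not the relative amounts of the proteins.

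Ratios of counts within a library do not depend on how libraries are scaled, so FOSL1, FOSL2, JUNB and JUN were also set against JUND, a denominator chosen after its values were seen. The FOSL2 to JUND count ratio was 0.525, 0.477 and 0.344 in the control libraries and 0.209, 0.156 and 0.207 in the ZEB1 libraries. The FOSL1 to JUND count ratio was 2.27, 1.83 and 2.13 in the controls and 1.08, 1.06 and 1.61 in the ZEB1 libraries. The JUNB to JUND count ratio was 0.620, 0.573 and 0.807 against 0.314, 0.383 and 0.471. For these 3 ratios the groups did not overlap, which restates the levels above without a library scaling and is given as a description. The JUN to JUND count ratio was 1.61, 1.08 and 1.65 against 1.40, 0.766 and 1.03, with overlap.

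The FOSL1 to FOSL2 count ratio was 4.33, 3.84 and 6.21 in the controls and 5.17, 6.82 and 7.76 in the ZEB1 libraries, and the groups overlapped. The share of JUND among all counts of the 8 genes was 16.2% to 19.7% in the controls and 24.5%, 28.2% and 22.5% in ZEB1 replicates 1, 2 and 3. The share of FOSL1 was 35.1% to 36.9% in the controls and 26.5%, 30.0% and 36.2% in the ZEB1 libraries. In ZEB1 replicate 3 the FOSL1 share thus lay within the control range while the JUND share lay above it. These shares rest on 2319 to 3052 member counts in the controls and on 351, 500 and 1243 in ZEB1 replicates 1, 2 and 3.

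**Figure D3:**
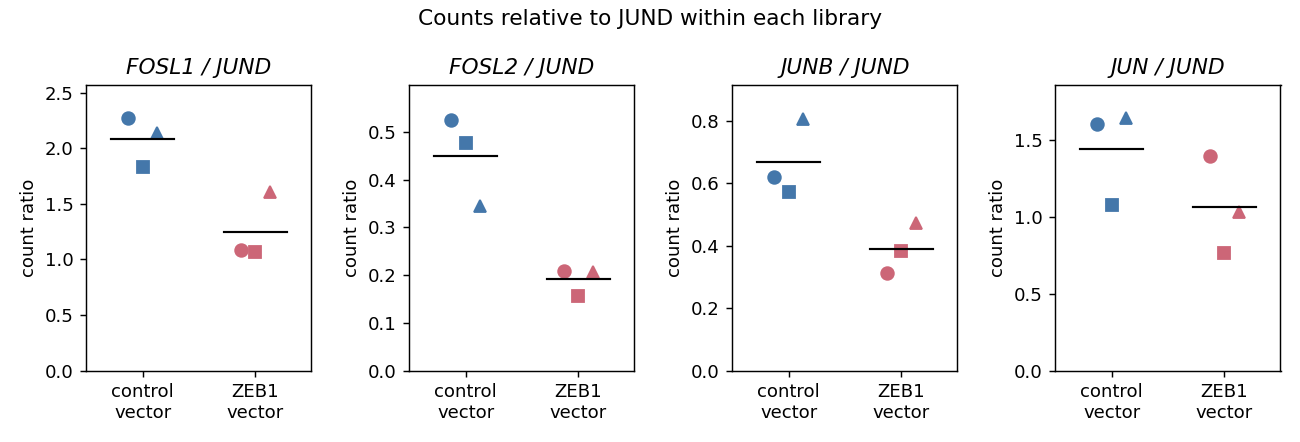
Counts of FOSL1, FOSL2, JUNB and JUN divided by the JUND counts of the same library (y axis, from 0), with circles, squares and triangles for replicates 1, 2 and 3 and a line at the group mean. The groups are apart for FOSL1, FOSL2 and JUNB and overlap for JUN.

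The pathway around AP-1 was described from 5 lists written with earlier results of these data known, so the shares given for each list are a description. Upstream, 23 of 25 genes for RAS, RAF, MAP kinases and the RPS6KA kinases that MAP kinases activate had enough counts to be tested, and 0 passed the edgeR threshold, with 1 gene lower and 0 genes higher where the unadjusted p was under 0.05. This is near the 3.57% of all genes tested that were lower at that p. The gene was HRAS, a RAS GTPase, with 178 ± 13.9 CPM in the controls and 141 ± 10.5 CPM in the ZEB1 libraries (SD, n = 3, log2 fold change -0.34, edgeR adjusted p = 0.520). The ERK kinase gene MAP2K2 had a log2 fold change of -0.09 (SE 0.17). The list's median was -0.17, beside -0.01 over all genes tested. Of 11 genes for factors that act at the FOS and JUN promoters, 10 were tested and 0 passed, with 0 at an unadjusted p under 0.05 and a median of -0.09. Among them the serum response factor gene SRF was at -0.28 (SE 0.18) and ELK3, one of its ETS partners, at -0.09 (SE 0.18).

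Of 26 genes for other basic leucine zipper factors, some of which pair with AP-1 proteins, 21 were tested and 0 passed, with 0 at an unadjusted p under 0.05. Their median log2 fold change was -0.06, with 9 positive and 12 negative values. ATF4, the factor of the amino acid response, was at -0.14 (SE 0.15) and CEBPB, known for inflammatory genes, at -0.27 (SE 0.15).

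Immediate early genes outside AP-1 had 23 of 28 members tested and 0 called, with 18 negative values, where 51.5% of all genes tested were negative, and a median of -0.24. At an unadjusted p under 0.05 there were 5 lower, against 3.57% of all genes tested, and 0 higher. The ERK phosphatase gene DUSP6, which is switched on by the ERK activity that it restrains, had 129 ± 22.6 CPM in the controls and 81.6 ± 12.6 CPM in the ZEB1 libraries (SD, n = 3, log2 fold change -0.64, edgeR adjusted p = 0.235). IER3 was at -0.55 (SE 0.18), and the matricellular genes CCN2 and CCN1 were at -0.38 (SE 0.15) and -0.19 (SE 0.16). The survival factor gene MCL1 was at -0.10 (SE 0.16). DUSP6 and IER3 passed in edgeR without ZEB1 replicate 3 (adjusted p = 0.0417 and 0.0430), where 3.38% of 12095 genes passed. With ZEB1 replicates 1 and 2 both left out, the log2 fold changes of DUSP6 and IER3 were -0.47 and -0.33.

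Known AP-1 target genes had 23 of 27 members tested and 0 called, with 22 negative values, 1 positive value and a median of -0.48. The share of negative values over all genes tested was 51.5%. The unadjusted p was under 0.05 for 9 genes, all lower, against 3.57% of all genes tested. In 9 genes the ZEB1 libraries lay below every control, against 8.16% of all genes tested. Because this list was written with earlier results of these data known, these shares are a description. MMP9, a gelatinase, was at -0.87 (SE 0.18, edgeR adjusted p = 0.161) and the angiogenic factor VEGFA at -0.60 (SE 0.17). The most abundant of them, the metallothionein MT2A and the protease inhibitor TIMP1, were at 0.04 (SE 0.16) and -0.13 (SE 0.15). MMP9 passed in limma-voom (adjusted p = 0.0154), where 0.512% of genes passed, and in DESeq2 (adjusted p = 0.00268), and VEGFA passed in DESeq2 (adjusted p = 0.0287), where 11.6% of the genes adjusted passed. In edgeR MMP9 passed without ZEB1 replicate 3 (adjusted p = 0.000952), where 3.38% of genes passed. It also passed with no filter on low counts (edgeR adjusted p = 0.000272), where 0.693% of genes passed. With ZEB1 replicates 1 and 2 both left out, the log2 fold change was -0.44 for MMP9 and -0.68 for VEGFA.

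**Figure D4:**
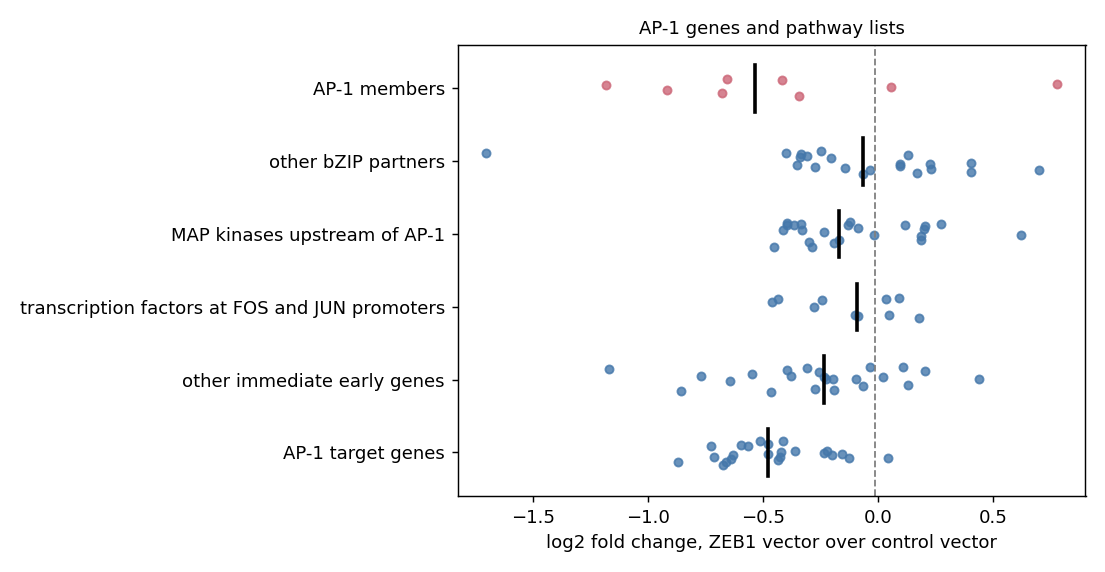
Log2 fold changes from edgeR, ZEB1 vector over control vector (x axis), of the tested genes of the 8 AP-1 genes and of 5 pathway lists, 1 point per gene, with a black line at each list's median and a dashed line at the median of all genes tested. The AP-1 target list has 22 of 23 points below 0, and the other basic leucine zipper list is spread to both sides. The lists were written with earlier results of these data known.

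The genes with the most similar pattern were sought among genes whose mean count was 100 or more, by the root mean square difference of log2 CPM relative to the control mean over the 6 libraries. For FOSL1 they were TRIB3, LYPLA2 and INHBA, with differences of 0.06, 0.08 and 0.09 on the log2 scale. TRIB3, a stress-induced pseudokinase gene, had a log2 fold change of -0.62, LYPLA2, a thioesterase gene, -0.57, and INHBA, the activin A subunit gene, -0.73. For FOSL2 they were ATP13A1, NKRF and FAM3A, with differences of 0.23, 0.26 and 0.27 and log2 fold changes of -1.18, -0.80 and -1.18. ATP13A1 encodes an ATPase of the endoplasmic reticulum. Likeness over 6 libraries in 2 groups follows the group difference and the depth that the libraries share. Overlaps in the RefSeq table were looked up for ZEB1 and for the genes named from the pathway lists and by pattern. CEBPB, HRAS, ELK3, DUSP6, IER3, CCN2, MMP9, TIMP1, LYPLA2, INHBA, FAM3A and ZEB1 overlap another annotated gene. The cell type markers were not looked up. How reads shared by overlapping genes were assigned is not given in the sources used here.

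ZEB1 itself had 203, 114 and 131 counts in the control libraries and 13805, 21844 and 23143 in the ZEB1 libraries, with counts of the vector and of the gene not separated. Total counts were 5359200 to 5878640 in the controls and 1277632 to 3316228 in the ZEB1 libraries. Of 18 chondrocyte markers 1 was tested, SOX9, at a log2 fold change of 0.01, and the cartilage matrix genes COL2A1 and ACAN had 11 and 13 counts over all 6 libraries. The summed level of these 18 markers was 57.1 to 89.3 CPM in the controls and 69.1 to 82.6 CPM in the ZEB1 libraries. This sum is mostly SOX9. Of the 18, 10 had 0 counts in all ZEB1 libraries and 5 had 0 counts in all controls, which were deeper. The 6 epithelial markers summed to 2.94 to 3.83 CPM in the controls and 1.78 to 3.57 CPM in the ZEB1 libraries. The 8 leukocyte markers, of which SRGN is also known from other cell types, summed to 182 to 205 and 181 to 258 CPM, with PTPRC and CD3E at 0 counts in every ZEB1 library. The 6 endothelial markers summed to 32.9 to 48.0 and 37.3 to 61.1 CPM. The endothelial sum is mostly EGFL7. In each of these 4 sums the groups overlapped, though single markers did not all do so. The endothelial marker PECAM1 had 1.44, 1.09 and 1.80 CPM in the controls and 3.55, 7.72 and 6.55 CPM in the ZEB1 libraries (log2 fold change 2.04, SE 0.87, edgeR adjusted p = 0.462), on 4 to 22 counts per library. The leukocyte marker LAPTM5 was at 34.3 to 37.9 CPM in the controls and 20.9 to 31.5 CPM in the ZEB1 libraries (edgeR adjusted p = 0.566). SRGN had an unadjusted edgeR p of 0.0445 (log2 fold change 0.38, adjusted p = 0.520), with groups that overlapped. The part of these markers in the AP-1 values was not tested.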

How the data were processed

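The authors deposited raw counts per gene for 6 libraries, and the submitters' processing notes name HISAT2, Subread, featureCounts and GRCh38, with no versions. What annotation, strand setting and handling of molecular identifiers were used is not given in the sources used here. Without collapsed identifiers, reads are not independent molecules. Gene names came from a RefSeq table of GRCh38.p14, which matched 27745 of 28395 IDs. Counts were tested in edgeR 4.0.16 (R 4.3.3) by quasi-likelihood with robust dispersions, TMM factors, filterByExpr and group as the only term, with Benjamini-Hochberg adjustment over 11329 genes. Approximate standard errors divide the fold change by the root of F. Log2 CPM values carry a prior count of 2. The fit was tested on simulated data. DESeq2 1.42.0 and limma-voom (limma 3.58.1) were alternatives. The members and lists were chosen with earlier results of these data known. Named genes outside the 8 were, per pathway list, called genes, up to 3 with the smallest unadjusted p under 0.05 and the 2 with the highest mean count, and the 3 most similar in pattern to FOSL1 and to FOSL2. Some genes that this rule names are left out here.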

Additional observations from a re-analysis of the deposited data

How the results depend on the processing

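Over 8 other settings of scaling, filter, depth, block, dispersion and tool, each of the 6 libraries left out, and 2 settings added after seeing the data, FOSL1, FOSL2, JUN and JUNB were negative in all 16 and FOS was positive in the 15 that were computed for it. The count of called genes, 1 in edgeR, was 127 with no filter on low counts, 205 in DESeq2, 58 in limma-voom, 0 with the ZEB1 row left out and 2 with ZEB1 replicates 1 and 2 both left out. With single libraries left out it was 1 to 409, the highest being without ZEB1 replicate 3. The count of called AP-1 genes, 0 in edgeR, was 1 (FOSL1) with no filter, where 0.693% of all genes passed. In DESeq2 it was 1, again FOSL1, where 11.6% of the genes adjusted passed. FOSL1 was the only 1 of the 8 that DESeq2 gave an adjusted p. On leaving out single libraries it was 0 to 1, with FOSL1 called without ZEB1 replicate 3, where 3.38% of all genes passed. JUND was at -0.073 with library size alone, -0.033 with thinning and -0.0076 to 0.10 on leaving out single libraries, and ATF3 at -1.54 to 0.12. With ZEB1 replicates 1 and 2 both left out, ATF4 was at 0.045, MAP2K2 at 0.20, CCN1 at 0.025 and MT2A at -0.19, and MT2A was at -0.10 with library size alone. On leaving out single libraries MAP2K2 was at -0.29 to 0.021, MCL1 at -0.17 to 0.0042 and MT2A at -0.12 to 0.14. The cause was not tested. With the replicate number as a block FOSL1 was at -0.69 and FOSL2 at -1.14, 1 gene was called, and no call of a named gene changed. Deviations of same-numbered libraries correlated at -0.181, -0.025 and -0.034, and no control correlated best with its own number. Each deviation is from a group mean of 3 libraries, which ties these correlations to each other. They therefore cannot tell whether same-numbered libraries were paired. FOS, FOSB and ATF3 had the fewest counts of the 8 genes and the largest standard errors, 0.77 to 1.11. The part of depth in this was not tested.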
